A study of Mus musculus with 4 samples.

Results

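CD8 T cells were taken from single-cell libraries of bone marrow mononuclear cells, isolated over Ficoll from the femur and tibia of 2 TLR9-/- mice and 2 wildtype (WT) mice of the C57BL/6 strain. The TLR9-/- mice carry a disrupted Tlr9 allele in every cell of the body, TLR9 being the endosomal receptor for unmethylated CpG DNA, and no group was given a treatment. The genotypes were bred in separate cages, so genotype and cage cannot be told apart, and the ages of the mice are not given in the labels. Transcripts were counted as unique molecular identifiers (UMIs) by 10X 5′ sequencing, 1 library for each mouse, and 39167 cells passed the filters.

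A cell counted as a CD8 T cell when it held at least 1 UMI of the CD3 chains Cd3d, Cd3e and Cd3g together, at least 1 of Cd8a and Cd8b1 together, none of Cd4 or Siglech, and at most 1 of Cd79a and Cd79b together. This gave 286 of the 39167 cells (0.730%), 148 and 85 in TLR9-/- mice 1 and 2 and 33 and 20 in WT mice 1 and 2. They held 392426, 311923, 77680 and 48971 UMIs in that order, so that the sums of the WT mice are the least precise. The median CD8 T cell had 1970.5, 2735, 2201 and 2372 UMIs.

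CD8 T cells read peptides that MHC class I molecules present on other cells, through a T cell receptor that signals by way of the CD3 chains and with CD8 as coreceptor. Naive and central memory cells express Ccr7, the receptor that leads lymphocytes into lymph nodes, and the transcription factors Tcf7 and Lef1. Effector memory cells express the chemokine Ccl5 and the granule protein Nkg7, and the bone marrow is a known residence of memory CD8 T cells.

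The values that chose the cells are given as a description only. Both CD8 chains were detected in 140 cells (49.0%), Cd8b1 alone in 102 (35.7%) and Cd8a alone in 44 (15.4%). A single CD8 UMI carried 75 cells over the limit, 39, 12, 19 and 5 in TLR9-/- mice 1 and 2 and WT mice 1 and 2, and in WT mouse 1 these were 19 of its 33 cells. A single CD3 UMI carried 16. Just outside the limits lay 1091 cells with CD3 UMIs and neither coreceptor, 22 cells with CD8 but no CD3 UMI, 3 with a UMI of Cd4, 8 with a UMI of Siglech and 27 with more than 1 Cd79 UMI. Free RNA bears on such limits. At least 1 CD8 UMI was found in 0.903%, 0.583%, 0.789% and 0.530% of neutrophil-granule cells and in 0.300%, 0.832%, 0.622% and 0.236% of B-lineage cells, both classes being set without CD8, and in none of the 245 natural killer (NK) cells. Of the 286 barcodes, 11 also occurred in another library, and none was a CD8 T cell in both.

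The label was then checked on genes that the rule did not use. A UMI of a T cell receptor constant region (Trac, Trbc1 or Trbc2) was present in 85.8 ± 1.84% of the TLR9-/- and 89.4 ± 15.0% of the WT cells (mean ± SD of 2 mice each). Trbc1 did not pass between CD8 T and NK cells (below), so this share alone does not set T cells apart from NK cells. A beta chain variable gene was seen in 225 of the 286 cells (78.7%), with exactly 1 such gene in 185 of them, and Trbv13-2 was seen most often, in 46 cells. Gamma chain variable genes were seen in 13 cells and delta chain variable genes in 6. After every cell was thinned to 1000 UMIs, Tcf7 was detected in 20.4%, 27.4%, 24.2% and 25.0% of CD8 T cells in TLR9-/- mice 1 and 2 and WT mice 1 and 2, against at most 0.303% of B-lineage cells in any mouse. The median depth before thinning was 2013.5 to 2735 UMIs in those CD8 T cells and 1873.5 to 2440 in those B-lineage cells. Ccr7 was detected in 10.6%, 22.6%, 9.09% and 5.0% of CD8 T cells, and in 4.05% to 10.8% of B-lineage cells, which express this receptor as well. Of the 17 genes of the NK list, Ncr1, Klra4 and Klra8 had no UMI, Klrb1c (NK1.1) had 4, 0, 7 and 1, and Klra7, another Ly49 receptor, had 17, 10, 26 and 0, in 9 of the 33 cells of WT mouse 1. At least 1 UMI of the list, led by Tyrobp, was in 48.3% of CD8 T cells, and the list held 0.133%, 0.0683%, 0.290% and 0.0613% of their UMIs.

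UMIs of other lineages were spread unevenly over the CD8 T cells. At least 1 UMI of the neutrophil, erythroid, B cell and monocyte lists was in 55.2%, 35.3%, 43.7% and 65.0% of cells. The richest cell held 27.2%, 25.6%, 35.7% and 11.7% of the UMIs of those lists in that order, over the 4 mice. In TLR9-/- mouse 2 the richest cell held only 6.06% of the B cell list. The 4 lists of B cell, neutrophil, monocyte and erythroid genes together made up more than 3% of the UMIs in 14 CD8 T cells, 9, 3, 2 and 0 in the 4 mice. The neutrophil list of 14 genes, with S100a9 as its most abundant gene over the 4 mice, held 0.523%, 1.59%, 1.07% and 0.112% of the UMIs of CD8 T cells, and the erythroid list of 11 genes, led by Hbb-bs, held 0.536%, 0.144%, 2.19% and 0.0225%. The B cell list of 14 genes, with the B cell factor Pax5 at 0 in all 4 mice, held 0.0599%, 0.0212%, 0.0335% and 0.0306%. The monocyte list of 14 genes, with C1qa and C1qb at 0 in all 4, held 0.397%, 0.220%, 0.273% and 0.1205%, and its most abundant gene was Ly6c2, which T cells express as well. The part of these cells in the results was not tested beyond leaving out the 14. No doublet caller was run. Cells with 1 CD8 UMI differed from those with more. NK-list genes took 0.242% of their UMIs against 0.0849%, and a UMI of Fcer1g, an adaptor of NK and myeloid receptors, was in 28.0% against 10.4% of cells.

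CD8 T cells made up more of the marrow in TLR9-/- than in WT mice. They were 1.37% and 0.953% of the filtered cells of the TLR9-/- mice and 0.312% and 0.225% of those of the WT mice, so every TLR9-/- mouse lay above every WT mouse. The means were 1.16 ± 0.297% and 0.268 ± 0.0617% (SD, n = 2 each), a log2 fold change of 2.11 (SE 0.36, adjusted p = 0.0319 by edgeR's quasi-likelihood test on cell numbers, over 9 classes of cells). Of those 9 classes 2 passed (22.2%). The other one was the Lyz2-positive monocytic class. CD4 T cells stood at 0.195% and 0.449% against 0.113% and 0.0787% (adjusted p = 0.0761 in the same edgeR test) and NK cells at 1.03% and 0.392% against 0.672% and 0.315% (adjusted p = 0.456). T cells with neither coreceptor also lay higher in both TLR9-/- mice, at 4.65% and 2.97% against 1.87% and 1.43% (log2 fold change 1.21, adjusted p = 0.0742). The B lineage made up 34.1% and 31.0% against 51.7% and 52.5% (adjusted p = 0.0761 by edgeR), and its size enters the share of every other class. The study profiled the mice in 2 experiments, each with 1 mouse of either genotype. With equal replicate numbers taken as 1 experiment, which the labels do not state, the CD8 T cell share kept its call (log2 fold change 2.11, edgeR adjusted p = 0.00115), CD4 T cells passed as well (1.63, edgeR adjusted p = 0.0126), and 5 of the 9 classes passed. A test that permutes the 4 mice cannot fall below p = 0.333, the value the exact permutation test gave for the CD8 T cell share.

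**Figure D1:**
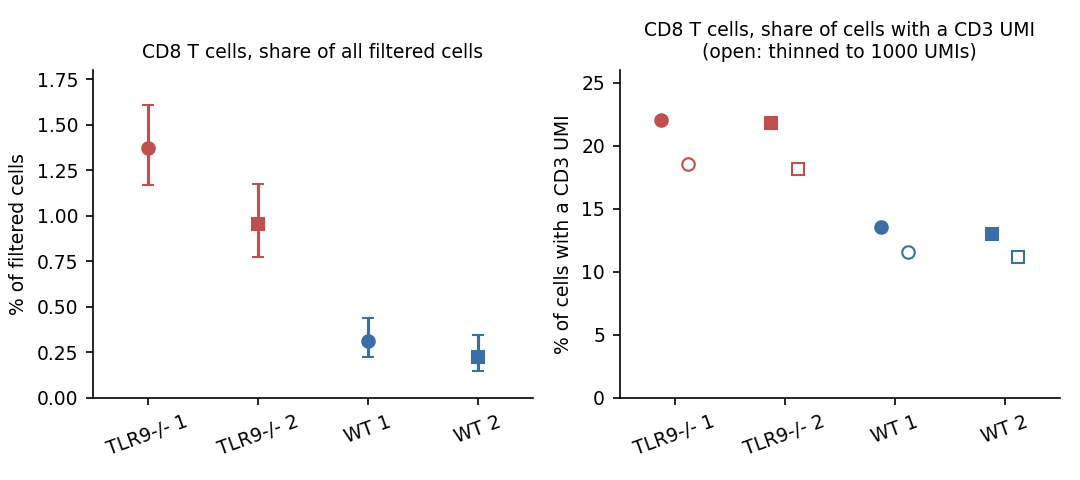
CD8 T cells as a percentage of all filtered cells (left, bars are 95% Wilson intervals, counting error only) and of the cells with a CD3 UMI (right, filled points as counted, open points after thinning to 1000 UMIs) in each of the 4 mice. In both panels the TLR9-/- mice, at 1.37% and 0.953% and at 22.1% and 21.8%, lie above the WT mice.

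Among T cells themselves the CD8 share was higher too. Of the cells with a CD3 UMI, 22.1% and 21.8% were CD8 T cells in TLR9-/- mice and 13.6% and 12.99% in WT mice (log2 fold change 0.72, SE 0.042, edgeR adjusted p = 0.00239 over 3 classes of T cells). A deeper cell crosses the limits of the rule more easily. The cells with a CD3 UMI had medians of 1886 and 2739.5 UMIs in TLR9-/- and 1816.5 and 2320 in WT mice, which overlapped, and all cells had medians of 2545 and 3618 against 1759 and 2287. With each cell thinned to 1000 UMIs first, the shares of T cells, an alternative chosen after seeing the data, were 18.6% and 18.2% against 11.6% and 11.2% (edgeR adjusted p = 0.022). A stricter rule asked for at least 2 CD3 UMIs, at least 2 CD8 UMIs and no Cd79 UMI. With it, also chosen after seeing the data, they were 19.2% and 22.9% against 6.75% and 13.6% and did not pass (edgeR adjusted p = 0.204). Cells with 1 CD8 UMI then belong to no class of T cells, so the base of this share differs. The shares of all cells after thinning were 1.17% and 0.651% against 0.280% and 0.168%. With the stricter rule the shares of all cells were 0.890% and 0.740% against 0.104% and 0.135%, a log2 fold change of 2.77 (edgeR adjusted p = 0.00766). The difference of the share of all cells did not pass the test after thinning (log2 fold change 2.02, edgeR adjusted p = 0.0877), nor without any 1 of the 4 mice (1.82 to 2.37, edgeR adjusted p = 0.0704 to 0.165).

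NK cells, the other cytotoxic lymphocytes of these marrows, served as a contrast that shows which parts of the cytotoxic programme the CD8 T cells held. CD8 T cells carried more Trac, Lat, Il7r, Tcf7 and Lef1. NK cells carried more Gzma, Prf1, Ccl3 and lectin-like receptors. Ccl5 and Nkg7 were present in both, at lower levels in CD8 T cells. NK cells were defined here by Ncr1, the receptor NKp46, without CD3 UMIs, and numbered 111, 35, 71 and 28. UMIs were summed for each class and mouse and compared within mice, and the genes of both rules were left out. Of 1675 genes tested, 228 passed an adjusted p of 0.05 (13.6%), 140 higher (8.36%) and 88 lower (5.25%) in CD8 T cells, while 16.7% were higher and 16.6% lower in every mouse.

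Of the T cell receptor and CD3 list, 3 of 4 tested genes were higher. A gene high in 1 class alone passes the count filter through that class, so the counts of every list in this comparison are a description. Trac, the constant region of the receptor's alpha chain, had 360, 298, 327 and 511 counts per 1000000 UMIs (CPM, after TMM scaling) in CD8 T cells of TLR9-/- mice 1 and 2 and WT mice 1 and 2, and 10.5, 5.99, 8.13 and 0 CPM in NK cells. The classes were far apart in every mouse (log2 fold change 5.31, SE 0.32, edgeR adjusted p = 3.2e-05). Trbc2 was higher by 2.33 (SE 0.32), while Trbc1, the other beta chain constant region, had a log2 fold change of 0.37 (SE 0.23) that did not pass. Of 14 signalling genes of the receptor, 5 were higher and none lower. Lat, the membrane adaptor on which that signal is assembled, stood at 463, 487, 503.8 and 535 CPM against 52.7, 65.9, 24.4 and 76.6, with little spread among the CD8 T cells of the 4 mice. Its partner Grap2 was higher by 2.51 (SE 0.38) and Skap1, an adaptor between the receptor and integrins, by 0.78 (SE 0.19).

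Naive identity and homing genes were higher for 7 of 12 tested, out of 20 in the list, and lower for none. Il7r, the receptor chain for the survival cytokine interleukin 7, had 193, 254, 490 and 325 CPM against 23.7, 12.0, 24.4 and 57.4 in NK cells. Ccr7 had 113, 237, 81.7 and 209 CPM against 5.27, 0, 0 and 0. Neither gene overlapped between the classes. Il7r had a log2 fold change of 3.47 (SE 0.30). Ccr7, with 128 UMIs against 2 pooled over all mice, had a ratio of 51.4 (exact 95% counting interval 13.9 to 429). Such an interval holds no spread among cells or mice. Tcf7 and Lef1 were higher by 2.14 (SE 0.24) and 2.27 (SE 0.27), Rgs10, a regulator of G protein signals, by 2.90 (SE 0.27), and Cd27, a costimulatory receptor, by 1.34 (SE 0.25). The surface protein Ly6a, which interferon induces, was higher by 2.81 (SE 0.33), the cytokine Ltb by 2.04 (SE 0.23), Ly6c2 by 1.33 (SE 0.18) and the survival gene Bcl2 by 0.82 (SE 0.21). Outside the lists, the protease gene Klk8 was higher by 4.36 (SE 0.36) and Gm8369, with 126 UMIs in CD8 T cells and 0 in NK cells, was at least 33.7-fold higher, the floor being 3 UMIs over all NK cells.

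The cytotoxic list was lower for 15 of 18 tested genes and higher for none, 18 of its 26 genes having passed the count filter. Of the 17 genes of the NK list, 13 passed the count filter, and each of these was lower. Gzma, a granzyme, had 92.6, 3.43, 503.8 and 302 CPM in CD8 T cells and 5624, 5980, 11274 and 10051 in NK cells. Every NK value lay far above every CD8 value (log2 fold change -5.86, SE 0.62). Most of the Gzma in CD8 T cells came from single cells, and in WT mouse 1 all 37 UMIs lay in 1 cell. Perforin (Prf1) was lower by a log2 value of -3.71 (SE 0.39), NK1.1 (Klrb1c) by -4.89 (SE 0.51), the activating receptor NKG2D (Klrk1) by -2.82 (SE 0.27) and Klre1 by -2.86 (SE 0.31). The lectin-like receptors Klrb1a, Klri2, Klra9 and Klrb1f had 2, 1, 3 and 3 UMIs in CD8 T cells against 131, 132, 108 and 81 in NK cells. The ratio of NK to CD8 T cells, pooled over all mice, was lowest for Klrb1f, at 33.6 (exact 95% counting interval 11.1 to 166, without spread among mice). Klra4 and Klra8, the receptors Ly49D and Ly49H, had 303 and 295 UMIs in NK cells and 0 in CD8 T cells, at least 126-fold and 122-fold higher in NK cells against a floor of 3 UMIs.

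**Figure D2:**
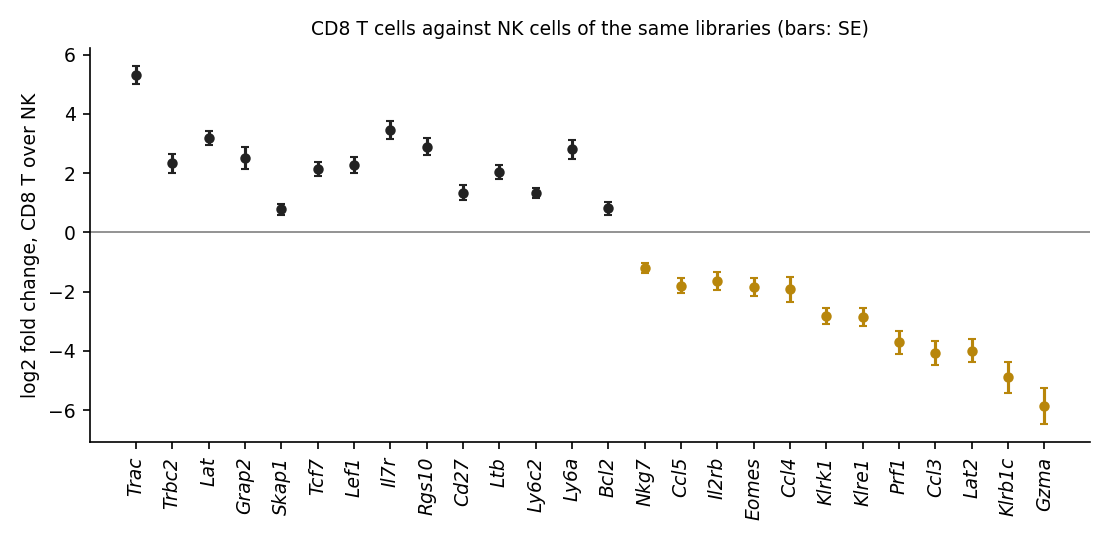
Log2 fold change of named genes between CD8 T cells and NK cells of the same 4 mice, with black points higher in CD8 T cells, ochre points higher in NK cells and bars for the SE. Values run from 5.31 for Trac to -5.86 for Gzma, and genes with 3 or fewer UMIs in a class are not drawn.

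The chemokines Ccl3 (-4.07, SE 0.40), Ccl4 (-1.92, SE 0.43) and Ccl5 (-1.80, SE 0.25) were lower in CD8 T cells on the log2 scale, and so was Nkg7 (-1.20, SE 0.15). Of 17 memory genes, 10 were lower and 2 higher. The lower ones included the T-box factor Eomes (-1.86, SE 0.31), the interleukin 2 and 15 receptor chain Il2rb (-1.64, SE 0.30), Il18rap of the interleukin 18 receptor (-2.68, SE 0.44) and galectin 1 (Lgals1, -1.43, SE 0.17), all of which NK cells express as well. Lat2, an adaptor related to Lat, went the other way from Lat (-3.99, SE 0.39). None of 17 tested genes of MHC class I presentation passed in either direction. Ribosomal protein genes, a group picked after its values were seen, were higher for 67 of 80 with a median of 0.65. Without TMM scaling the median of all genes shifted from -0.02 to -0.20 and the split became 97 higher and 148 lower, with 59 of the 80 ribosomal protein genes still higher. Without the 14 CD8 T cells rich in other lineages, the NK cells being left unfiltered, 172 were higher and 151 lower.

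The share of cells in which a gene was found gives the same contrast cell by cell. After thinning to 1000 UMIs, Nkg7 was found in 69.01%, 66.7%, 57.6% and 75.0% of CD8 T cells, in 82.9% to 100% of NK cells and in 1.56% to 5.17% of B-lineage cells, which should lack it. Ccl5 was found in 49.3%, 27.4%, 51.5% and 40.0% of CD8 T cells, in 85.7% to 96.0% of NK cells and in at most 1.29% of B-lineage cells. Gzma was found in 3.52%, 0%, 3.03% and 10.0% of CD8 T cells against 77.1% to 87.2% of NK cells. Thinning left out 7 of the 286 CD8 T cells but 24 of the 71 NK cells of WT mouse 1.

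**Figure D3:**
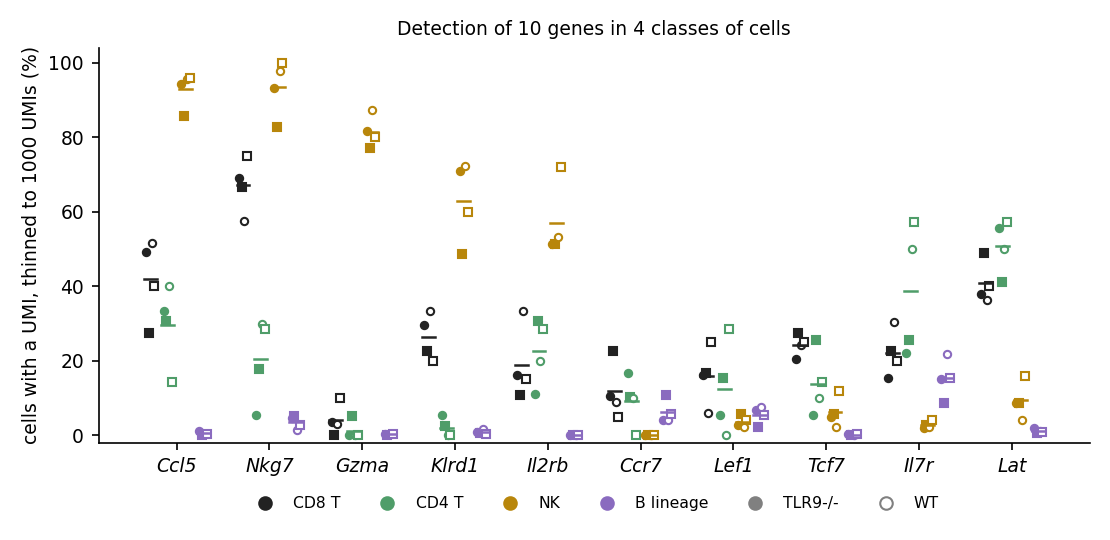
Percentage of cells with a UMI of each of 10 genes after thinning to 1000 UMIs, in CD8 T, CD4 T, NK and B-lineage cells, with 1 point for each mouse (filled TLR9-/-, open WT, circles mouse 1, squares mouse 2) and lines at the means. Nkg7 and Ccl5 lie between B-lineage and NK cells in CD8 T cells, and Gzma lies at 0% to 10.0%.

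CD4 T cells, which read peptides on MHC class II, were compared next, and few genes passed. In data simulated for this comparison, 4-fold changes were called for 76.7% of the changed genes and 2-fold changes for 5.88%. The simulation gave every gene the same spread and held no single cells rich in a gene, so these rates may be too high for the data. The cells counted as CD4 T cells held a CD3 and a Cd4 UMI and no CD8 UMI, and numbered 21, 40, 12 and 7 in the 4 mice. The 1091 cells with CD3 UMIs and neither coreceptor may hold further CD4 T cells. Of 788 genes tested 3 passed (0.381%), 2 higher (0.254%) and 1 lower (0.127%) in CD8 T cells. Regardless of the test, 13.1% of the genes were higher and 11.3% lower in CD8 T cells of every mouse. Ly6a was the lower one, with 96.96, 99.95, 319.5 and 110.5 CPM in CD8 T cells and 418, 778, 739.6 and 1004 in CD4 T cells of the same mice. It was lower in CD8 T cells of each mouse (log2 fold change -2.29, SE 0.34, edgeR adjusted p = 0.023). Rps24, a ribosomal protein, was higher by 0.80 (SE 0.11), and Hbb-bs, a globin, by 4.78 (SE 0.78). The globin went the other way in WT mouse 2, with 66.3 CPM against 134 in CD4 T cells, and rested on few cells, with 882 of its 1560 UMIs in 1 cell of TLR9-/- mouse 1 and 629 of 1251 in 1 cell of WT mouse 1.

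The genotype difference was also compared between CD8 T and CD4 T cells. Of 788 genes 1 passed (0.127%), Elane, a neutrophil gene whose UMIs lay almost wholly in 1 cell among the CD8 T cells of TLR9-/- mouse 2 and in 1 cell among the CD4 T cells of WT mouse 1.

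Several genes missed the threshold between CD8 T and CD4 T cells and are given as values. The cathepsin Ctsw, of cytotoxic cells, had a log2 fold change of 1.60 (SE 0.29, edgeR adjusted p = 0.062), Ccl5 of 2.67 (SE 0.64, 0.069), Bcl2 of 1.42 (SE 0.32, 0.064) and Nkg7 of 1.44 (SE 0.44, 0.16). In the other direction stood the interferon-induced Ifi27l2a at -1.65 (SE 0.33, 0.062), S100a10 at -1.57 (SE 0.34, 0.062) and S100a11 at -1.12 (SE 0.24, 0.062). DESeq2 called 56 genes higher and 7 lower, among them Ccl5 and Nkg7, and 46 of its 56 were ribosomal protein genes. Without the 14 CD8 T cells rich in other lineages edgeR called 38 and 8, while the CD4 T cells were left unfiltered. The CD4 T cells of TLR9-/- mouse 2 held 34238 CPM of S100a9 and 17364 of Camp, against 4218 and 1113 in its CD8 T cells. In the other mice S100a9 stood at 41.1 to 1046 CPM in CD4 T cells.

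The study divides CD8 T cells of the marrow into central memory cells, marked by Ccr7 and Lef1, and effector memory cells, marked by Ccl5. Divided by Ccl5 alone, 132 of the 286 cells held at least 1 UMI of it, 80 of 148, 26 of 85, 18 of 33 and 8 of 20. Those cells held a median of 23 Ccl5 UMIs, and only 11 of them held exactly 1. A UMI of Ccr7 or Lef1 was found in 28.8% of the Ccl5-positive and 62.3% of the Ccl5-negative cells, and in 9.32% and 39.1% after thinning to 1000 UMIs. The sides overlapped, since 38 cells had both and 58 had neither before thinning. These shares pool cells of 4 mice. The Ccl5-negative side was the higher one in each mouse, thinned or not.

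Ccl5-positive cells expressed less Lef1 and more AW112010, a long noncoding RNA. These were the only genes that passed of 822 tested (0.243%, or 0.122% in each direction) when the sums of both sides were compared within mice by edgeR, with Ccl5 left out (29 higher and 35 lower at an unadjusted p of 0.05). Lef1 had 67.7, 37.4, 43.8 and 114 CPM in Ccl5-positive and 238, 219, 164 and 318 CPM in Ccl5-negative cells of TLR9-/- mice 1 and 2 and WT mice 1 and 2. It was lower on the positive side of each mouse and the sides did not overlap (log2 fold change -1.95, SE 0.29, edgeR adjusted p = 0.044). AW112010 had 910.2, 879, 2411 and 682 CPM against 500.3, 395, 851 and 349.9. It was higher on the positive side of each mouse, although WT mouse 1 lay above the others on both sides (log2 fold change 1.12, SE 0.17, edgeR adjusted p = 0.044). Neither passed without TMM scaling (edgeR adjusted p = 0.052) or without either WT mouse, AW112010 passed without TLR9-/- mouse 1 but not without mouse 2 (edgeR adjusted p = 0.27), and no gene passed when the cells were divided after thinning (edgeR adjusted p = 0.052 for AW112010, with Lef1 under the count filter). Positive cells were the deeper ones in 3 of the 4 mice, with medians of 2295.5, 3431.5, 2238.5 and 2239.5 UMIs against 1765, 2447, 2201 and 2372. Over all genes tested, 9.12% were higher and 7.66% lower on the positive side of every mouse.

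**Figure D4:**
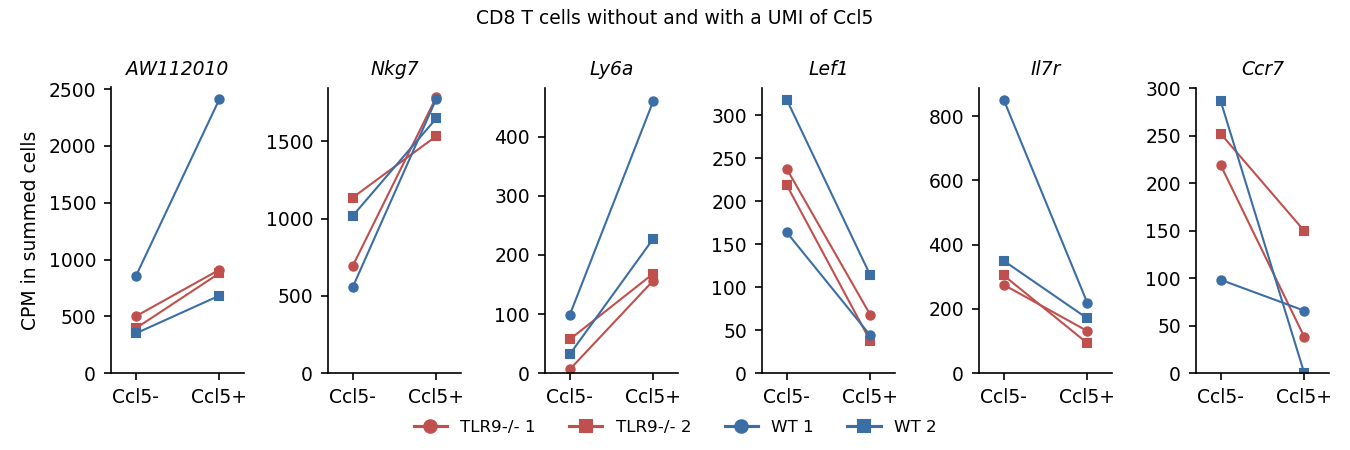
CPM of 6 genes in the summed CD8 T cells without (Ccl5-) and with (Ccl5+) a UMI of Ccl5, with a line for each of the 4 mice and each vertical axis starting at 0. Lef1 lies at 164 to 318 CPM without and 37.4 to 114 CPM with Ccl5, and AW112010 rises along every line.

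Lef1 spans chr3:131110471-131224356 on the plus strand and AW112010 spans chr19:11047612-11055808 on the minus strand (GRCm38). The 250 bases before their RefSeq starts (GRCm38.p6) are shown because they are the promoters of the genes that passed, and that of Il7r because it was the next gene in order of p. They run over chr3:131110047-131110296 (plus), chr19:11050567-11050816 (minus) and chr15:9529877-9530126 (minus), each written 5′ to 3′. Lef1 has 4 RefSeq starts, of which the first is shown, and the window of AW112010 lies inside the longer gene model given above.

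Lef1: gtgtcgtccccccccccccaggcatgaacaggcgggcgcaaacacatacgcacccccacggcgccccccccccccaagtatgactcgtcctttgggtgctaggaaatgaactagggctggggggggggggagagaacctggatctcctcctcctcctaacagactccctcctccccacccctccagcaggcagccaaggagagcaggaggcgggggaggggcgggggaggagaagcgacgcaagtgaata

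AW112010: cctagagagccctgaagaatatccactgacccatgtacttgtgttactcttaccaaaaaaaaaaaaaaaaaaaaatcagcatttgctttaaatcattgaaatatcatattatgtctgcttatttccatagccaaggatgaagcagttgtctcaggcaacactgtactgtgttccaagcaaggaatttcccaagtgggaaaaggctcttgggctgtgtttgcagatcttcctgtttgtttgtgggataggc

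Il7r: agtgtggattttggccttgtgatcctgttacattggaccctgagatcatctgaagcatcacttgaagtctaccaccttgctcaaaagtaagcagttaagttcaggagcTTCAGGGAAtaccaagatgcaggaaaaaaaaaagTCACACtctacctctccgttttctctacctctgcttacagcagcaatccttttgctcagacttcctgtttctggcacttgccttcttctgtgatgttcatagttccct

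Capitals mark matches, on either strand, to the motif letters of 4 factor families active in T cells. The Il7r window held one STAT match (TTCNNNGAA, in 7.02% of the 32851 RefSeq windows of this length) and one T-box match (TCACAC, in 12.3%). RUNX letters (TGTGGT, in 14.0%) and TCF/LEF letters (CTTTGA, in 13.8%) were in none of the 3 windows. The windows of Lef1 and AW112010 differed in base composition, at 66.4% and 39.2% G and C. Matches describe the sequence and no more.

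The genes that came next did not pass and are given as values. Il7r had 131, 93.5, 219 and 171 CPM in Ccl5-positive and 275, 304, 851 and 349.9 CPM in Ccl5-negative cells, lower in each mouse (log2 fold change -1.45, SE 0.26, edgeR adjusted p = 0.095). Ccr7 stood at -1.57 (SE 0.43, 0.25) and Tcf7 at -0.75 (SE 0.23, 0.33). Ly6a stood at 2.33 (SE 0.43, 0.095), and Il2rb at 2.45 (SE 0.49, 0.11) although WT mouse 2 went against it with 114 against 191 CPM. Of the genes of killing and its receptors, Nkg7 stood at 1.02 (SE 0.22, 0.11), Klrd1 (CD94) at 1.11 (SE 0.24, 0.11) and Hcst, the adaptor of NKG2D, at 0.92 (SE 0.19, 0.11). The GTPase Gimap4 stood at 1.16 (SE 0.23, 0.11), and the ubiquitin ligase Peli1, the integrin Itgb7 and the peroxidase Gpx1 at -1.13, -1.16 and -1.31. Gpx1 went the other way in WT mouse 2, with 341 against 318 CPM. The erythroid genes Hba-a1, Hba-a2 and Hbb-bs stood at -2.75, -2.82 and -3.59, none of them lower in every mouse. DESeq2 called 6 genes higher, Hcst, Nkg7, Klrd1, AW112010, Ly6a and, named after its values were seen, Hopx, and 2 lower, Lef1 and Il7r.

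The share of Ccl5-positive cells did not separate the genotypes. After thinning it was 49.3% and 27.4% in TLR9-/- mice and 51.5% and 40.0% in WT mice, so the groups overlapped. The means were 38.3 ± 15.5% and 45.8 ± 8.14% (SD, n = 2 each), a difference of -7.42 percentage points (exact permutation p = 0.667, the smallest possible being 0.333). Without thinning the difference was -4.95 points, and its direction turned at 1500 UMIs (2.93 points) and with the stricter rule (5.08 points). Ccr7 was found in 16.6 ± 8.52% and 7.05 ± 2.89% of cells after thinning (exact permutation p = 0.333), and with 500 UMIs the difference shrank from 9.55 to 1.91 points. Lef1 was found in 16.4 ± 0.332% and 15.5 ± 13.4%, a difference of 0.902 points. Without thinning its difference was 12.1 points, with 1500 UMIs 4.64 and with 500 UMIs -2.89, so its direction turned as well.

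No gene passed between TLR9-/- and WT CD8 T cells in the fit without pairing. Of 2462 genes tested, edgeR called 0 at an adjusted p of 0.05 (0%), with 89 higher and 63 lower at an unadjusted p of 0.05, and DESeq2 called 0 with 27 and 12. With mice of equal number paired, 6 genes were higher in TLR9-/- CD8 T cells and none lower, BC018473 and 5 genes of the myeloid lineage, Elane and Mpo among them. In 22.6% of the genes both TLR9-/- mice lay above both WT mice and in 16.9% below them. The targeted gene could not serve as a check, since Tlr9 had no UMI in any CD8 T cell, and the 33 and 20 cells of the WT mice allow shares of up to 10.4% and 16.1% of cells with a UMI (upper 95% Wilson limits). Over all cells Tlr9 had 41 and 48 UMIs in TLR9-/- and 120 and 97 in WT mice.

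A difference seen in many cells was that of BC018473, an antisense transcript at chr11:116752167-116759373 (plus strand, GRCm38). It was found in 58 of 148 and 41 of 85 TLR9-/- CD8 T cells (39.2% and 48.2%) and in none of the 33 and 20 WT cells. Its sums were 187 and 393 CPM against 0 and 0, at least 11.7-fold higher in TLR9-/- mice with a floor of 3 UMIs over both WT mice (edgeR adjusted p = 0.49). Without the 14 cells rich in other lineages it was the only gene that edgeR called (adjusted p = 0.042). Of the 122 UMIs of TLR9-/- mouse 2, 61 lay in the 1 cell that also held most of its Elane. The transcript was not particular to CD8 T cells, being in 21.8% and 30.6% of all filtered cells of TLR9-/- mice and in 1 cell of the WT mice.

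Of the genes with the smallest p, those higher in TLR9-/- mice included myeloid genes that came from few cells. Elane, neutrophil elastase, had 284 and 1381 UMIs in TLR9-/- and 0 and 2 in WT CD8 T cells, and 1368 of the 1381 lay in 1 cell of TLR9-/- mouse 2 that held 37769 UMIs, 12.1% of all CD8 T cell UMIs of that mouse. Mpo, myeloperoxidase, had 687 UMIs against 0. Apoe had 70 and 40 UMIs against 0 and 0, in 4 of 148 and 4 of 85 cells. Of the 70, 47 lay in 1 cell. For UMIs held by so few cells, 0 UMIs in 33 and 20 WT cells set no lower limit on the fold. The 2 TLR9-/- mice were unlike in Mpo, with a mean of 1058 and an SD of 992 CPM. In TLR9-/- mouse 2, 3558 of the 3606 UMIs of Elane, Mpo, Prtn3 and Ctsg together lay in 1 cell. Alox5ap, of leukotriene synthesis, had 258 and 158 CPM against 12.8 and 20.6. None of these passed (edgeR adjusted p = 0.49 for each). Of the genes lower in TLR9-/- mice, Tmem108 had 25.2 and 35.4 CPM against 128 and 165, found in 9 and 9 against 8 and 8 cells (log2 fold change -2.24, SE 0.46, edgeR adjusted p = 0.49). Il18rap stood at -2.77 (SE 0.55, 0.49) on 5 and 2 against 6 and 3 UMIs, the microtubule protein gene Map4 at -2.0 (SE 0.49, 0.66), the mitochondrial protein genes Dnajc15 and Rhot2 at -1.34 (SE 0.33, 0.66) and -2.22 (SE 0.59, 0.71).

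T cell genes were close between the genotypes or differed by values that did not pass. Nkg7 had 1346 and 1299 CPM in TLR9-/- and 1254 and 1258 CPM in WT CD8 T cells, a log2 fold change of 0.07 (SE 0.25, edgeR adjusted p = 0.96). Lat had 455 and 458 against 473 and 474 CPM, and Selplg, the selectin ligand, 477 and 458 against 448 and 454, both picked for closeness after their values were seen. Il7r had 189 and 238 CPM against 461 and 289, with no overlap (-0.84, SE 0.32, edgeR adjusted p = 0.77). Ifi27l2a had 763 and 422 CPM against 2098 and 763 (-1.29, SE 0.50, 0.78) and Ly6a 96.0 and 96.7 against 307 and 103 (-1.18, SE 0.47, 0.78). In both, WT mouse 1 stood far above WT mouse 2. Gzma had 90.9 and 3.22 CPM against 473 and 268, resting on 1 cell with all 37 UMIs in WT mouse 1 and 1 cell with 12 of 13 in WT mouse 2. Igtp, an interferon-induced GTPase, stood at -1.45 (SE 0.51, 0.75), the early response factor Jund at -0.99 (SE 0.36, 0.75), Cst7, an inhibitor of cathepsins, at 1.06 (SE 0.40, 0.75) and the chemokine receptor Cxcr6 at 1.93 (SE 0.68, 0.75).

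**Figure D5:**
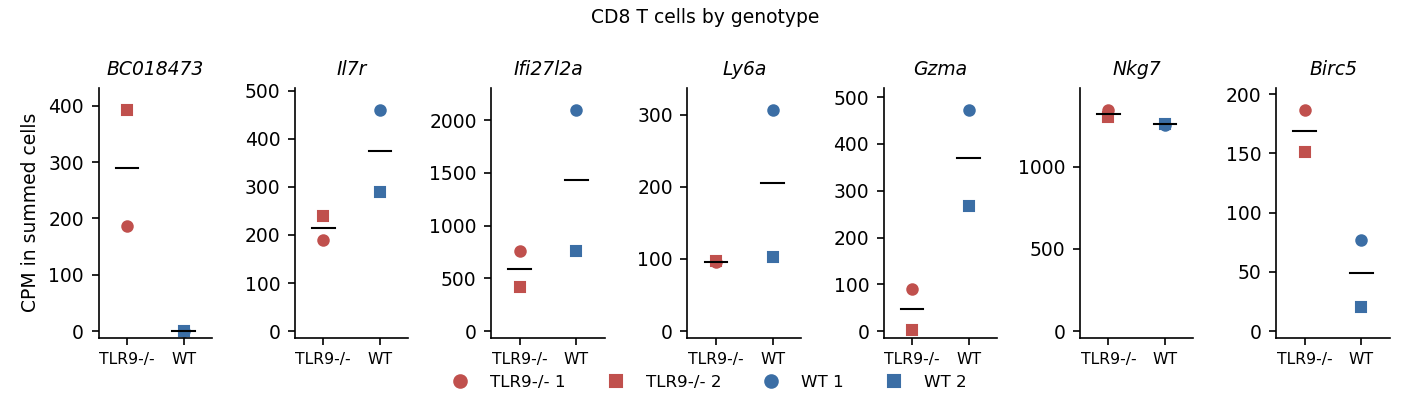
CPM of 7 genes in the summed CD8 T cells of each mouse, by genotype, with lines at the means and each vertical axis close to 0 at its base. BC018473 lies at 187 and 393 CPM in TLR9-/- mice and at 0 in WT mice, and Nkg7 lies between 1254 and 1346 CPM in all 4.

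By list, none of the genes passed in either direction. A gene high in 1 genotype alone passes the count filter through that genotype, so the counts of every list here are a description. The filter kept 13 of 20 cell cycle genes and 4 of 14 monocyte genes. The cell cycle list had positive log2 fold changes for all 13 tested genes, with a median of 0.64 beside 0.04 over all genes, Birc5 (survivin) standing at 1.63 with 187 and 151 CPM against 76.8 and 20.6 (SE 0.53, edgeR adjusted p = 0.75). Of the cell cycle UMIs of TLR9-/- mouse 2, 31.1% lay in 1 cell. The share of cells with any UMI of this list went the other way, at 84.5% and 84.7% against 87.9% and 90%, and so did that of Mki67 before thinning, at 6.07 ± 1.93% against 9.55 ± 0.643% (1.65 ± 0.652% and 1.52 ± 2.14% at 1000 UMIs). Among lists of other cell types, the monocyte list had 4 positive of 4 with a median of 0.87 and the neutrophil list 9 of 11 with 0.28. The B cell list had 2 of 2 with 0.48 and the erythroid list 2 of 6 with -1.60. The interferon-stimulated list had 3 positive of 13 with a median of -0.78 and the cytotoxic list 5 of 11 with -0.37. The naive and homing list had 7 of 18 with -0.09 and the signalling list 9 of 21 with -0.06. Activation genes were sparse. Cd69 had 48, 17, 13 and 3 UMIs, Ifng 5, 0, 0 and 0, Tnf 6, 9, 0 and 0, Tnfsf11 (RANKL) 1, 2, 0 and 0, Icos 7, 6, 9 and 0 and Cd40lg 4, 0, 1 and 0 in TLR9-/- mice 1 and 2 and WT mice 1 and 2. At these counts no difference in Ifng, Tnf or Tnfsf11 was detectable, as the WT cells held 126651 UMIs against 704349. In data simulated for this comparison, with the same spread for every gene, 4-fold changes were called for 31.9% of the changed genes and 2-fold changes for 4.92%.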

How the data were processed

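Libraries of 4 mice were made with the 10X 5′ kit. The authors aligned the reads to mm10 with Cell Ranger and STAR and deposited UMI counts per gene and barcode, which had not been normalised, and the sources used here also name Seurat 2.3.4. Cells with 200 to 10000 genes and at most 10% mitochondrial UMIs were kept, the study's methods printing a far lower mitochondrial percentage, which was read as a fraction. Doublets were not called.

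UMIs were summed for each class and mouse and tested with edgeR 4.0.16 in R 4.3.3 (TMM scaling, filterByExpr with a minimum count of 10, quasi-likelihood test, Benjamini-Hochberg adjustment over all genes tested, threshold 0.05). The 9 genes of the rule were left out. Comparisons of classes had the library as a term and the genotype comparison had 2 libraries a group. DESeq2 1.42.0 was an alternative. Intervals are 95% Wilson intervals for counting error only. Python 3.11.15, numpy 2.4.6, scipy 1.17.1 and pandas 2.3.3 were used.

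The cells kept for each mouse numbered 10781, 8918, 10573 and 8895, with 50204578, 63958243, 31210188 and 41384657 UMIs. Members and the 26 gene lists were chosen with earlier results of these data known. The text names the 10 largest rises and falls past the threshold with the same direction in every mouse (where fewer than 5 passed, the 5 smallest p in each direction), up to 4 genes of each list by p, and fixed marker genes. The 5 comparisons across genes were tested on simulated data with known changes and the same spread for every gene. The tests of cell shares were not. In the simulated data, 92.2% of 4-fold and 12.5% of 2-fold changes were called for CD8 T against NK cells, with 1 false call. False calls numbered 4 for the division by Ccl5 and 2 for CD8 T against CD4 T cells, beside the 2 and 3 genes called in the data. A few genes are not reported here.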

Additional observations from a re-analysis of the deposited data

Results flagged for a closer look

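The genotype difference of Elane, neutrophil elastase, was not the same in CD8 T and CD4 T cells. Its log2 fold change between TLR9-/- and WT mice was higher in CD8 T than in CD4 T cells by 12.84 (SE 1.74, edgeR adjusted p = 0.041 for the interaction), the only one of 788 genes that passed, a fitted value that rests on 2 Elane UMIs in WT CD8 T cells. CD8 T cells had 725 and 4601 CPM in TLR9-/- mice and 0 and 44.2 in WT mice, and CD4 T cells had 48.3 and 113 against 9327 and 201. In WT mouse 1, 433 of the 454 Elane UMIs of CD4 T cells lay in 1 cell with 19660 UMIs, and in TLR9-/- mouse 2, 1368 of the 1381 of CD8 T cells lay in 1 cell with 37769. No gene passed without the 14 CD8 T cells rich in UMIs of other lineages.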

How the results depend on the processing

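Of 86 values of 7 results under other settings, 45 kept their call or size, 6 lost the call and 35 counts or shares moved. Most of these results are counts of called genes, which have no sign to change. Of the differences in shares, that of Ccl5-positive cells changed sign and that of CD8 T cells did not. Of 1019 values of 90 named genes none reversed, 32 lost a call and 100 gained one. The CD8 T cell share had a log2 fold change of 2.02 after thinning (edgeR adjusted p = 0.0877), 2.77 with the stricter rule (edgeR adjusted p = 0.00766) and 1.82 to 2.37 without 1 mouse. Of T cells it was 1.11 with the stricter rule (edgeR adjusted p = 0.204, added after seeing the data). Genes called by genotype (0) became 31 without the filter, 1 without cells rich in other lineages and 8 to 25 without 1 mouse, where the lone mouse is assumed to vary like the others (23 without TLR9-/- mouse 1, 11 without TLR9-/- mouse 2, 8 without WT mouse 1, 25 without WT mouse 2). Calls against CD4 T cells (3) became 63 with DESeq2, 84 unfiltered and 33 with the stricter rule. They became 46 without the 14 CD8 T cells rich in other lineages (CD4 T cells unchanged), 5 without the library term and 3 to 12 without 1 mouse. Calls against NK cells (228) became 424 unfiltered, 124 without the library term and 170 to 234 without 1 mouse. Calls by Ccl5 (2) became 8 with DESeq2, 0 without TMM, 55 unfiltered, 6 with the stricter rule, 14 without those cells, 1 without the library term, 0 when divided after thinning and 0 to 14 without 1 mouse. The interaction (1) became 0 with DESeq2, a mitochondrial limit of 5%, the stricter rule or without those cells, 16 unfiltered and 1 to 12 without 1 mouse. The difference in Ccl5-positive share (-7.42 points) was 5.08 with the stricter rule, 2.93 at 1500 UMIs and -18.4 to 3.54 without 1 mouse. The cause of these changes was not tested.

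With the replicate number as a replicate block, the CD8 T cell share kept 2.11 (edgeR adjusted p = 0.00115) and 6 genes were called by genotype. Each of the study's 2 experiments held 1 mouse of either genotype, but the labels do not say that equal numbers mark 1 experiment. Deviations of equal numbers correlated across 2462 genes at 0.147 in CD8 T cells and 0.685 in all cells, with only 2 pairs. WT mice gave 33 and 20 CD8 T cells, and the smallest exact permutation p of 2 against 2 mice is 0.333.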

Other observations

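The most frequent beta chain variable gene was not the same in every mouse. Trbv13-2 was the most frequent in CD8 T cells of both TLR9-/- mice, in 19 of 112 and 22 of 74 cells with any such gene, while Trbv13-3 led in WT mouse 1 (6 of 25 cells) and Trbv3 in WT mouse 2 (3 of 14 cells). No test was made of this difference. Alpha chain variable genes were seen in 36.4% of the CD8 T cells and were spread over 52 genes, with Trav12-2 in 10 cells.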
